A study of Mus musculus with 6 samples.

Results

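The transcripts of 43 genes of the MYC network and of ribosome production were followed in mammary tumor cells that carried either an intact or a disrupted Nr4a1 gene. The genes were taken from the deposited table by gene symbol, and all 43 of 43 named symbols were found among its 10995 rows. They comprise Myc and its partner Max, 38 genes whose products make ribosomal RNA or assemble ribosomal subunits, and the synthesis enzymes Odc1, Srm and Cad. The tumor cells came from MMTV-PyVT mice of the FVB/NJ strain, in which the mouse mammary tumor virus promoter drives the polyoma middle T oncogene, mainly in mammary epithelium. All libraries of both groups carried this transgene. One group of 3 libraries was labelled wild type for Nr4a1 and the other group of 3 was labelled Nr4a1-/-. The animals were age matched, with no age stated in the labels. Nothing in the labels ties the libraries of 1 group to different mice, so p-values here speak of spread among libraries and no further, and that spread may be technical.

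MYC is a transcription factor that binds DNA together with MAX, most tightly at the E-box CACGTG, and it is known to raise the transcription of genes for ribosome production, polyamine synthesis and nucleotide synthesis. Ribosomes are assembled in the nucleolus. There RNA polymerase I transcribes the ribosomal RNA precursor, small nucleolar ribonucleoproteins (snoRNPs) modify it, and assembly factors fold and cleave it into the small and the large subunit. Rapidly growing tumor cells are known for large nucleoli and high levels of these factors.

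The E-box is shown here where a promoter window held it, since it is the sequence that MYC and MAX are known to bind. RefSeq promoter windows of GRCm38.p6, each 300 bases long with 250 before and 50 after the transcription start, were matched by symbol for 37 of the 43 genes. Myc, Npm1, Fbl, Rrp12, Bop1 and Srm were not matched. CACGTG, which reads the same on both strands, was found in 8 of the 37 (21.6%), in 20.5% of the 127 matched genes of the other pathway lists described below, in 10.7% of the 8506 matched genes of the count table and in 7.24% of all 27025 genes with a window. The variant CACGCG, searched on both strands and counted separately, was found in 12 of the 37 (32.4%), against 27.6%, 18.5% and 9.36% of the same 127, 8506 and 27025 genes. These shares use the first listed window of each gene. With any listed window, CACGTG was found in 21.6%, 20.5%, 12.2% and 8.09% of the same sets. CACGCG was then found in 32.4%, 28.3%, 20.8% and 10.5%. The lines below give the 20 bases before and the 4 bases after each E-box in the direction of the gene, with the E-box in capitals.
Nop2 (chr6:125131803-125131832, plus strand): tgaggggcgtgtccctggatCACGTGtgtt
Max (chr12:76962242-76962271, minus strand): cccggcgcggtgagcccggtCACGTGttag
Pes1 (chr11:3963957-3963986, plus strand): cttcagggccctaggcagggCACGTGcggg
Wdr43 (chr17:71616212-71616241, plus strand): tgcgcctgcgcccgggcgaaCACGTGgctg
Nle1 (chr11:82908363-82908392, minus strand): tttccgcctcggttctcctcCACGTGggga
Tsr1 (chr11:74898084-74898113, plus strand): agtagagttcacttggtgcaCACGTGgact
Utp20 (chr10:88826768-88826797, minus strand): gcgcccagcggcactaactaCACGTGagga
Mybbp1a (chr11:72441347-72441376, plus strand): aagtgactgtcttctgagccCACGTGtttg

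In Nop2 the E-box began 60 bases before the RefSeq start of the window and in Max 3 bases before it. In the other genes it lay after the RefSeq start, counting the first base transcribed from there as position 1. It began at position 3 in Pes1, 18 in Wdr43, 24 in Nle1, 25 in Tsr1, 38 in Utp20 and 41 in Mybbp1a. GENCODE places the start of some of these genes elsewhere, such as Max at 76962201 and Wdr43 at 71615895. A match is a description of the letters, not of binding. Sequence outside the windows was not searched. The log2 fold changes of these 8 genes, knockout label over wild type label, ran from -0.14 to 0.19 with a median of 0.028. Those of the 29 matched genes without the motif in a window ran from -0.13 to 0.25 with a median of -0.016.

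The libraries held 19569173 to 24188875 counts. On the first principal component of all genes, which carried 60.04% of the variance, wild type replicate 1 stood at -51.3 and the other libraries between -2.23 and 28.8. Counts of Nr4a1, the disrupted gene, were 711, 406 and 358 under the wild type label and 612, 847 and 746 under the knockout label. Its transcript was thus no lower with the knockout label (mean 23.3 CPM ± 9.69 against 32.8 CPM ± 6.70, SD, n = 3 each, with CPM the count scaled to a common library size by edgeR's TMM factors), so the counts over the whole gene do not check the genotype, and directions below are between libraries as labelled. Epithelial markers were present, with Krt8 at 1514 CPM ± 354 with the wild type label and 1095 CPM ± 238 with the knockout label (SD, n = 3 each). Of 10 epithelial markers 9 were listed, and all 9 had a fitted log2 fold change (knockout label over wild type label) below 0, with a median of -0.48. Of the 9, 0 passed the adjusted threshold in edgeR and 1 in DESeq2, and 5 had an unadjusted p under 0.05 in edgeR. Over all genes these shares were 0.0%, 0.937% and 7.88%. Their summed level was 5183 to 5567 CPM with the wild type label and 3403 to 4437 CPM with the knockout label. The 6 listed fibroblast markers summed to 1450 to 3797 CPM and 3221 to 5751 CPM, the 11 macrophage markers to 808 to 949 CPM and 1142 to 1310 CPM, and the 6 pericyte and smooth muscle markers to 96.2 to 262 CPM and 308 to 566 CPM. Of the 11 macrophage markers 10 had a log2 fold change above 0 and 1, Cd14, lay below 0. All 6 fibroblast and all 6 pericyte and smooth muscle markers lay above 0. Every knockout library lay above every wild type library in 2 macrophage, 0 fibroblast and 5 pericyte and smooth muscle markers. Over all genes, 8.39% did so. Every knockout library lay below every wild type library in 4 of the 9 epithelial markers, beside 9.05% of all genes. An unadjusted p under 0.05 in edgeR was reached by 5 macrophage, 1 fibroblast and 5 pericyte and smooth muscle markers. At the adjusted threshold edgeR called 0 in each of these lists and DESeq2 called 1, 0 and 2. The 1 listed adipocyte marker of 5, Fabp4, stood at 2.45 to 4.27 CPM and 26.6 to 78.1 CPM, and passed in DESeq2 but not in edgeR (log2 fold change 4.005, edgeR adjusted p = 0.287). The 5 myoepithelial markers, which summed to 948 to 1918 CPM and 1377 to 1853 CPM, overlapped between the groups. The 8 markers of T and B cells and the 7 of endothelial cells were not among the listed genes. Whether cell makeup differed between the groups was not tested, nor was the part of these marker differences in the results below. In such bulk samples fewer cells of a type and less RNA per cell cannot be told apart.

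No difference between the genotype labels was detected in any of the 43 genes, and the fitted differences were small. Of the 43 genes, 0 passed the edgeR quasi-likelihood test at an adjusted p of 0.05, where 0.0% of all genes passed. At an unadjusted p under 0.05 the count was also 0 of 43, where 7.88% of all genes passed, and DESeq2 gave 0 of 43 at the adjusted threshold, where it called 0.937% of all genes, and 0 of 43 at the unadjusted one, where it called 10.7%. The smallest unadjusted p among the 43 was 0.0867, and 14.6% of all genes had a smaller one. Their median log2 fold change was -0.016, with 19 above 0 and 24 below, beside a median of -0.0024 over all genes, of which 49.4% lay above 0. Scaling by library size alone turned both medians positive, to 0.0090 and 0.021, with 22 of the 43 above 0. Without wild type replicate 1 the counts at both thresholds in edgeR were again 0, the median was 0.018 and 25 genes lay above 0.

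A miss of the threshold does not show that levels were equal, so the size of difference that the data allow is given by the 95% interval of each fold change. The interval lay within 1.5-fold in either direction for 41 of the 43 genes, as it did for 66.0% of all genes and for 71.9% of the 8917 genes within the same range of mean CPM. The exceptions were Myc and Rrp12. All 43 intervals lay within 2-fold, against 84.1% of all genes. For 27 of the 43 the interval lay within 1.25-fold, against 28.2% of all genes. The fitted difference itself was smaller than 1.25-fold for 42 of the 43, the exception being Myc, and for 81.1% of all genes.

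**Figure D1:**
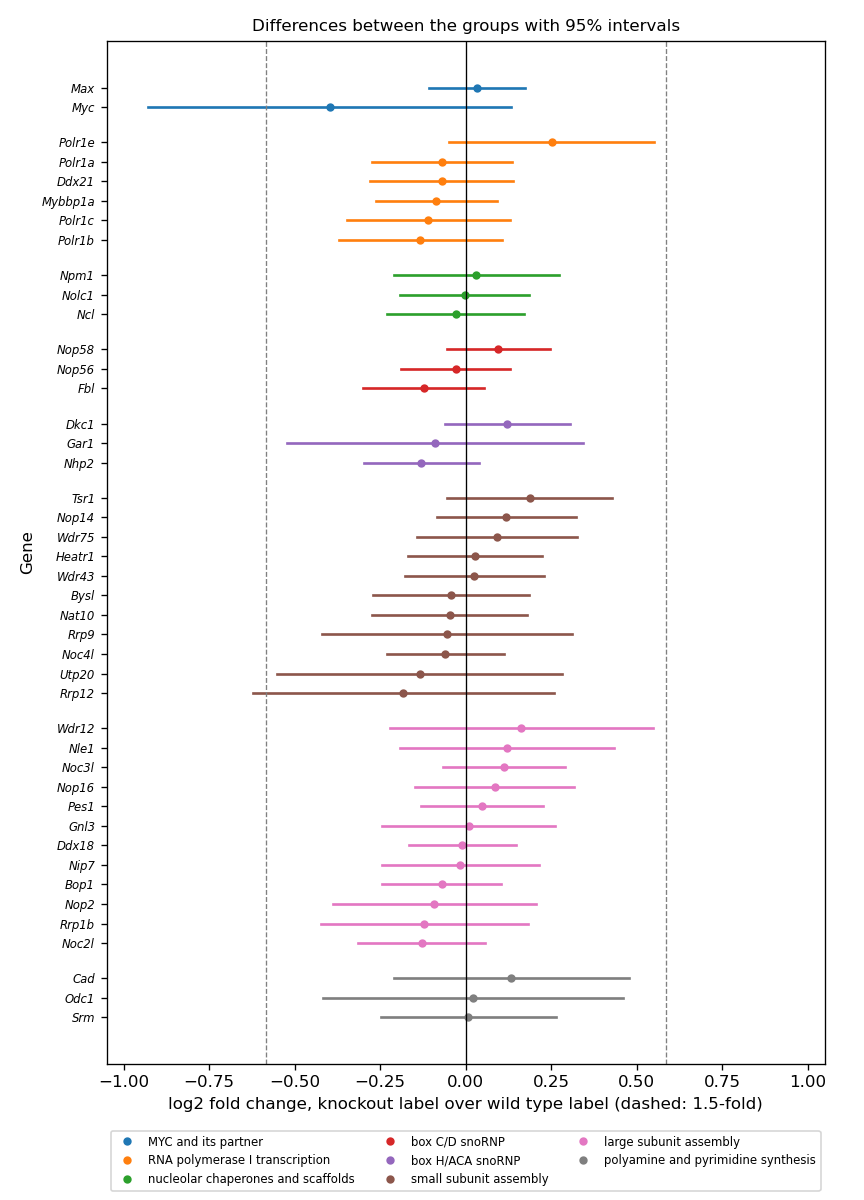
Log2 fold change of each of the 43 genes (x axis, knockout label over wild type label) by gene (y axis) and role (color), from the edgeR fit of 3 against 3 libraries. Points are the fitted values, lines their 95% intervals and dashed lines mark 1.5-fold. Every interval crosses 0, and those of Myc and Rrp12 reach past the dashed lines.

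Myc had the largest fitted difference, and it rested largely on 1 library. Myc (ENSMUSG00000022346.15, chromosome 15, 61985391 to 61990374, plus strand, GRCm38) stood at 87.3, 55.0 and 53.0 CPM in wild type replicates 1, 2 and 3 and at 46.4, 46.0 and 55.8 CPM in knockout replicates 1, 2 and 3. Wild type replicate 1 was the high library, and knockout replicate 3 stood above both remaining wild type libraries, so the groups overlapped. The means were 65.1 CPM ± 19.2 (SD, n = 3) and 49.4 CPM ± 5.52 (SD, n = 3). The fitted log2 fold change came to -0.40 (SE 0.22, edgeR adjusted p = 0.574), with an interval of the fold from 0.526 to 1.10. Leaving out wild type replicate 1 gave -0.13 (edgeR adjusted p = 0.824). Each library held at least 1098 Myc counts, so that counting alone gives a coefficient of variation of about 2.84%, while the spread within groups was 24.7%.

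Max, the obligate DNA-binding partner of MYC, was among the steadiest of the 43 genes. Max (ENSMUSG00000059436.13, chromosome 12, 76937269 to 76962201, minus strand) stood at 88.2, 88.6 and 86.0 CPM with the wild type label and at 87.9, 92.5 and 88.3 CPM with the knockout label. The groups overlapped, and knockout replicate 2 was the highest library by a small margin. For Max the log2 fold change came to 0.032 (SE 0.058, edgeR adjusted p = 0.836), while the interval of the fold ran from 0.927 to 1.13. Its coefficient of variation within groups, 2.32%, was close to the 2.27% that counting alone gives.

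The high Myc level of wild type replicate 1 was not matched by the other genes as a group. Myc in that library was 1.62 times the mean of the other wild type libraries, a ratio above that of 92.9% of all genes. For the remaining 42 genes the median of the same ratio was 1.02. It passed 1.25 in Odc1 (1.43), Gar1 (1.42) and Rrp1b (1.29), and it was under 0.8 in Utp20 and Wdr12. Wild type replicate 1 stood above both other wild type libraries in 18 of the 43 genes and below both in 9, where it did so in 41.3% and 40.9% of all genes. Some immediate early and stress genes, known to respond quickly to handling of tissue, were high in the same library. Atf3 stood at 26.3, 9.77 and 9.84 CPM in wild type replicates 1, 2 and 3 and at 6.86, 7.21 and 6.41 CPM in the knockout libraries. Fos stood at 77.6, 44.5 and 35.9 CPM and Egr1 at 67.7, 38.2 and 35.3 CPM in the wild type libraries, whereas Jun was lowest in wild type replicate 1, at 109, 144 and 143 CPM. The proliferation markers, all 8 listed, summed to 184, 228 and 278 CPM in the same libraries and to 248 to 288 CPM with the knockout label. Their part in the Myc value was not tested.

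**Figure D2:**
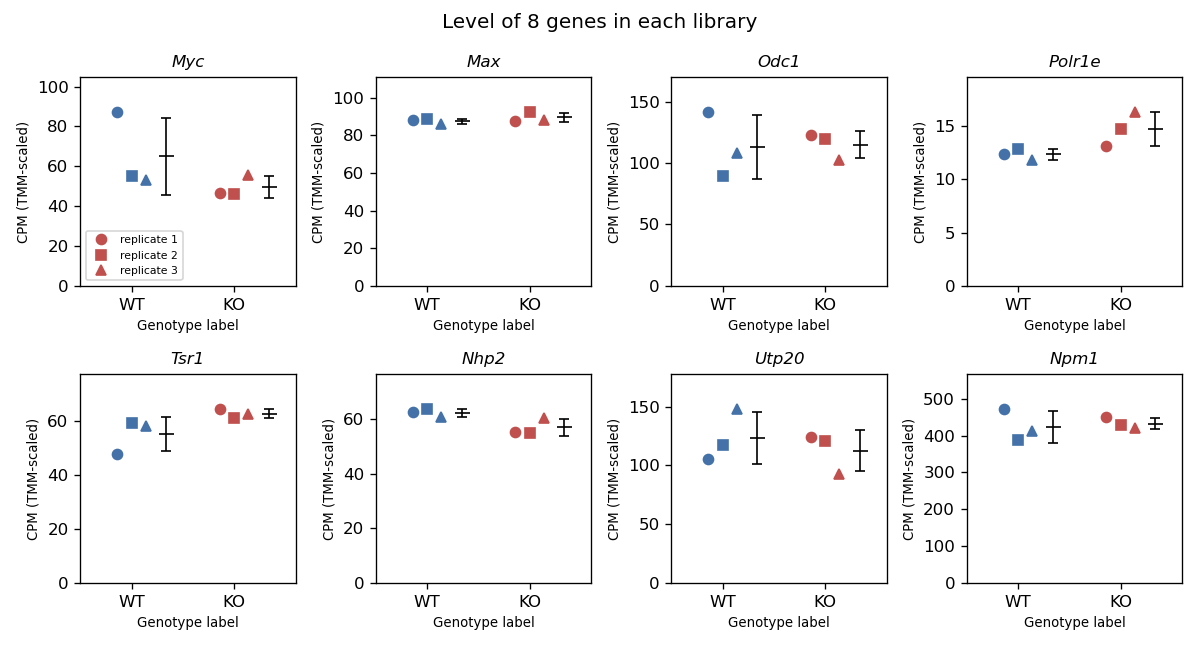
TMM-scaled CPM (y axis, from 0) of 8 genes by genotype label (x axis), with 1 symbol per library and the mean and SD of 3 libraries beside them. Myc is high in wild type replicate 1 at 87.3 CPM, while Max lies between 86.0 and 92.5 CPM in all 6 libraries.

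Among the genes of RNA polymerase I transcription, 1 of 6 lay above 0, also with scaling by library size alone, around a median of -0.078 on the log2 scale. The exception was Polr1e (ENSMUSG00000028318.14, chromosome 4, 45018583 to 45036565, plus strand), which encodes a subunit that acts in initiation. It stood at 12.4, 12.8 and 11.8 CPM with the wild type label and at 13.1, 14.7 and 16.3 CPM with the knockout label. All knockout libraries lay above all wild type libraries, by a narrow gap between 12.8 and 13.1 CPM. Its log2 fold change of 0.25 (SE 0.12, edgeR adjusted p = 0.574) was the highest of the 43 genes, and its mean of 13.5 CPM, or 296 counts, was the lowest. The large catalytic subunit gene Polr1a stood at 80.7, 78.2 and 86.3 CPM and at 82.9, 79.8 and 71.0 CPM. Polr1b, the other large subunit, had a log2 fold change of -0.13 (SE 0.098) and Polr1c, a subunit shared with RNA polymerase III, -0.11 (SE 0.098). The groups overlapped for all 3. Mybbp1a, a nucleolar regulator of this transcription whose E-box is printed above, stood at 248.5, 255 and 256 CPM and at 249.5, 243 and 223 CPM, with knockout replicate 3 the low library. The helicase gene Ddx21 was highest in wild type replicate 1, at 193 CPM, against 160 to 176 CPM in the other libraries.

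The genes of the abundant nucleolar proteins stood close to 0. Ncl (chromosome 1, 86344719 to 86359400, minus strand), which encodes nucleolin, had the highest mean CPM of the 43 genes, and stood at 494, 441 and 483 CPM with the wild type label and at 476, 450 and 462 CPM with the knockout label. Its log2 fold change of -0.030 (SE 0.082, edgeR adjusted p = 0.894) left an interval of the fold from 0.853 to 1.13, with a mean of 10250 counts per library. Npm1 (chromosome 11, 33152287 to 33163206, minus strand), which encodes the ribosome chaperone nucleophosmin, stood at 473, 387 and 412 CPM and at 450, 428 and 422 CPM. Both genes were highest in wild type replicate 1 and lowest in wild type replicate 2, so the wild type libraries enclosed the knockout libraries. Nolc1, a chaperone of snoRNPs, had a log2 fold change of -0.0035 (SE 0.078). Per kilobase of exon, Npm1 was the highest of the 43 at 161 CPM per kb, followed by the H/ACA protein gene Nhp2 at 52.0 and Ncl at 45.9 CPM per kb. The lowest was Wdr12 at 2.14 CPM per kb. On this scale 28 of the 43 lay above the median of all genes. The scale divides by the merged length of all annotated exons of a gene, which may exceed that of any 1 transcript. This length was 10188 bases for Ncl and 11955 for Wdr12 but 2665 for Npm1, so the order depends on it.

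Within each snoRNP particle, fitted differences lay on both sides of 0. In the box C/D particle, which methylates ribosomal RNA, Fbl encodes the methyltransferase fibrillarin and Nop56 and Nop58 encode its scaffold. Fbl stood at 78.1, 69.7 and 79.0 CPM with the wild type label and at 70.1, 69.1 and 69.0 CPM with the knockout label. The knockout libraries were tightly grouped at the level of wild type replicate 2. For Fbl the log2 fold change came to -0.12 (SE 0.072, edgeR adjusted p = 0.581). Leaving out wild type replicate 2 gave -0.18 with an unadjusted p of 0.0485 and an adjusted p of 0.399 in edgeR, the only unadjusted p under 0.05 among the 43 genes when each library in turn was left out. Nop58 stood at 93.1, 87.1 and 95.2 CPM and at 98.8, 96.9 and 98.5 CPM, without overlap and with knockout higher (log2 fold change 0.095, SE 0.062, edgeR adjusted p = 0.594). Nop56, its partner in the same particle, stood at 103, 93.4 and 97.0 CPM and at 93.0, 98.5 and 96.1 CPM, with overlap.

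In the box H/ACA particle, which converts uridine to pseudouridine, the pseudouridine synthase gene Dkc1 stood at 30.1, 29.9 and 30.9 CPM with the wild type label and at 34.1, 31.4 and 33.5 CPM with the knockout label. Its groups did not overlap (log2 fold change 0.12, SE 0.075, edgeR adjusted p = 0.585). Nhp2 (chromosome 11, 51619735 to 51623714, plus strand), a core protein of the same particle, had its knockout libraries lower. It stood at 62.5, 63.6 and 60.5 CPM and at 55.2, 54.9 and 60.5 CPM, and knockout replicate 3 came within 0.1 CPM of wild type replicate 3 (log2 fold change -0.13, SE 0.070, edgeR adjusted p = 0.574). Gar1, another core protein, was high in wild type replicate 1, at 34.1 CPM against 23.9 and 24.3 CPM in the other wild type libraries and 22.1, 27.3 and 28.0 CPM in the knockout libraries. Its log2 fold change of -0.090 became 0.097 without wild type replicate 1.

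Small subunit assembly factors split nearly evenly, with 5 of 11 above 0 around a median of -0.042 on the log2 scale. Without knockout replicate 3, 8 of 11 lay above 0. Tsr1 (chromosome 11, 74898071 to 74909342, plus strand), which acts late in maturation of the small subunit, stood at 47.8, 59.2 and 58.2 CPM with the wild type label and at 64.5, 61.0 and 62.6 CPM with the knockout label. The groups did not overlap, and wild type replicate 1 was the low library. For Tsr1 the log2 fold change came to 0.19 (SE 0.099, edgeR adjusted p = 0.574), and to 0.095 without that library. Antisense exons of the neighbour Srr cover 32.3% of the exonic bases of Tsr1, and no source here says that counting used strand, so these reads are uncertain. The scaffold gene Utp20 stood at 105, 117 and 148 CPM and at 124, 121 and 92.4 CPM, with its extremes in wild type replicate 3 and knockout replicate 3 (log2 fold change -0.14, SE 0.17, edgeR adjusted p = 0.747). Rrp12 stood at 39.5, 29.5 and 36.0 CPM and at 33.3, 35.1 and 24.02 CPM. Its log2 fold change of -0.18 (SE 0.18, edgeR adjusted p = 0.686) had a fold interval from 0.649 to 1.196, reaching lower than that of any of the others but Myc.

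Knockout replicate 3 was the low library for several of these factors. It had the lowest value of the 6 libraries in Rrp9, Rrp12, Utp20, Nat10 and Bysl, and the median of the 11 small subunit genes stood 0.077 log2 units below their own means there. Nop14, which scaffolds the early particle and was the highest of this group per kilobase at 18.96 CPM per kb, stood at 47.2, 48.9 and 52.9 CPM and at 56.9, 54.7 and 50.01 CPM, with overlap. For Heatr1, needed for early processing, the log2 fold change was 0.027 (SE 0.081), and for Wdr43, of the same particle, 0.024 (SE 0.084).

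Large subunit assembly factors were centred on 0, with 6 of 12 above 0 around a median of -0.00069 on the log2 scale, and 8 of 12 above 0 with scaling by library size alone. Pes1, Bop1 and Wdr12 encode the members of the PeBoW complex, which processes the large subunit RNA. Pes1 (chromosome 11, 3963975 to 3980004, plus strand) stood at 93.0, 100.4 and 88.6 CPM with the wild type label and at 101.6, 93.7 and 96.3 CPM with the knockout label. Bop1 stood at 98.6, 89.3 and 90.7 CPM and at 92.9, 84.8 and 87.7 CPM. Wdr12 stood at 20.1, 23.5 and 28.7 CPM and at 26.1, 30.2 and 24.6 CPM, a log2 fold change of 0.16 (SE 0.16, edgeR adjusted p = 0.681). All members of the complex overlapped between the groups.

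Within the same role, Noc2l and Noc3l, whose yeast counterparts are partners in transport of the large subunit precursor, differed in direction. Noc2l stood at 76.8, 77.3 and 73.1 CPM with the wild type label and at 69.1, 64.3 and 74.4 CPM with the knockout label, with knockout replicate 3 above wild type replicate 3 (log2 fold change -0.13, SE 0.076, edgeR adjusted p = 0.583). Antisense exons of Samd11 cover 20.9% of its exonic bases. Noc3l stood at 28.9, 28.1 and 27.3 CPM and at 29.9, 30.98 and 30.4 CPM, without overlap (log2 fold change 0.11, SE 0.074, edgeR adjusted p = 0.596). The helicase gene Ddx18 had the smallest spread within groups of the 43 genes, 2.25%, below the 3.23% that counting alone gives, and stood at 43.9, 43.3 and 44.3 CPM and at 43.9, 44.6 and 42.1 CPM. The remaining 6 genes of this role had log2 fold changes between -0.12 (Rrp1b) and 0.12 (Nle1).

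The synthesis enzymes that are textbook targets of MYC also overlapped between the groups. Odc1 (chromosome 12, 17544794 to 17551505, plus strand), the rate-limiting enzyme of polyamine synthesis, stood at 142, 89.5 and 109 CPM with the wild type label and at 123, 120 and 102 CPM with the knockout label. It was highest in wild type replicate 1, as Myc was, and lowest in wild type replicate 2. Its log2 fold change came to 0.021 (SE 0.18, edgeR adjusted p = 0.969), with an interval of the fold from 0.749 to 1.375. Srm, which makes spermidine, stood at 43.7, 43.3 and 42.2 CPM and at 41.8, 49.4 and 38.7 CPM. Cad, which starts pyrimidine synthesis, stood at 52.0, 56.3 and 63.0 CPM and at 63.9, 72.1 and 51.7 CPM, and the knockout libraries thus held both its highest and its lowest value.

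**Figure D3:**
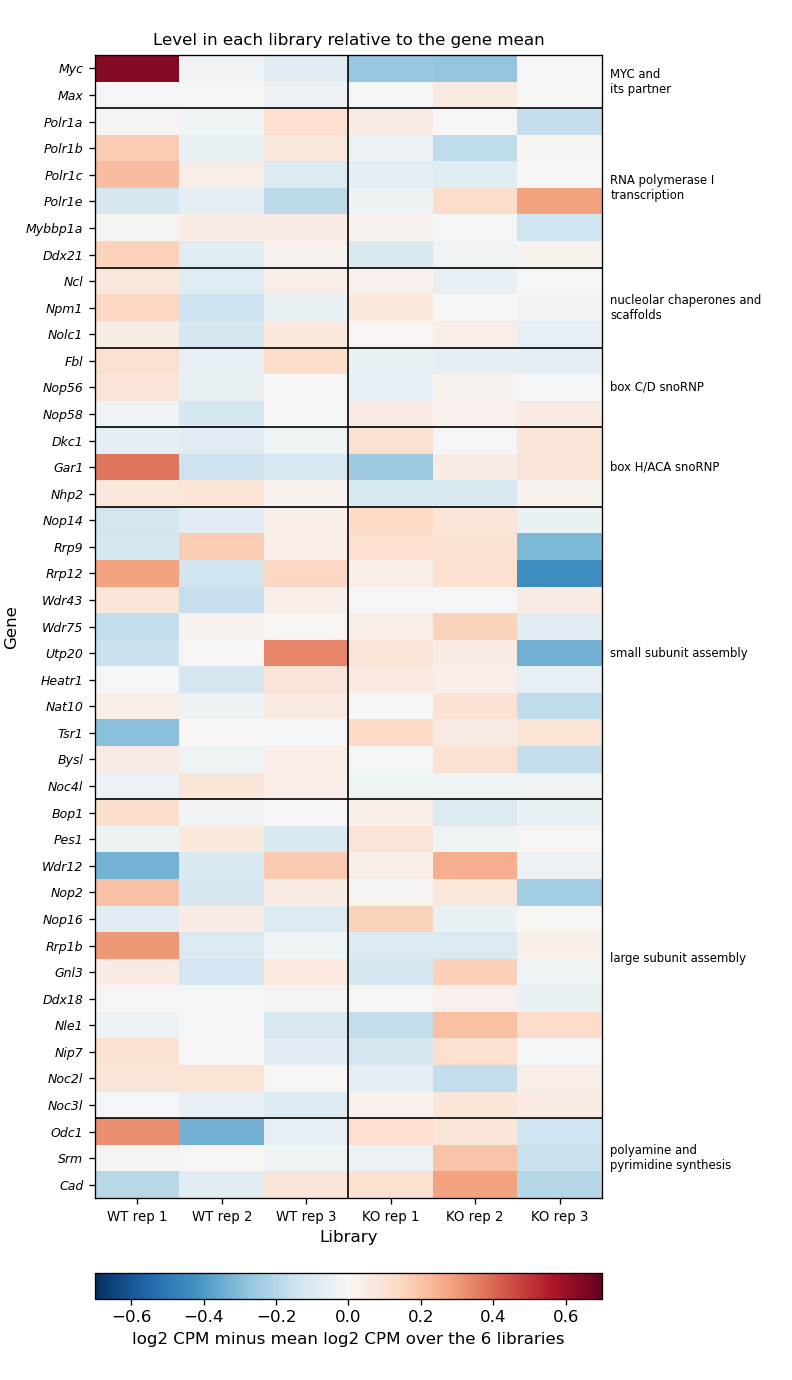
Level of each of the 43 genes (rows, by role) in each of the 6 libraries (columns), as log2 CPM minus the gene's mean over the libraries (color). Most cells are pale, wild type replicate 1 is dark for Myc, and knockout replicate 3 is low for Rrp9, Rrp12 and Utp20.

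In 6 of the 43 genes the groups did not overlap. In 5 of them (Polr1e, Nop58, Dkc1, Tsr1 and Noc3l) the knockout libraries were higher, where 8.39% of all genes did so, and in 1 (Nhp2) they were lower, where 9.05% did so. In either direction that is 6 of 43 genes, beside 17.4% of all genes. With 5 libraries separation is easier. Dropping wild type replicate 2 gave 13 genes beside 33.1% of all genes, and dropping wild type replicate 3 gave 10 beside 27.9%. Dropping knockout replicate 1 gave 10 beside 26.3%, and dropping knockout replicate 3 gave 11 beside 34.7%.

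Variation between libraries of the same label was small as well. The median coefficient of variation within groups was 7.05% for the 43 genes, 10.45% for all genes and 9.45% for genes in the same range of CPM. It was under 10% in 32 of the 43 and largest in Myc (24.7%), Odc1 (17.7%), Gar1 (17.65%), Utp20 (16.9%) and Rrp12 (16.8%). The ratio of the highest to the lowest library had a median of 1.21, against 1.35 over all genes. Summed over the 43 genes, the level was 3676, 3351 and 3551 CPM with the wild type label and 3530, 3511 and 3373 CPM with the knockout label, so that the wild type libraries held both the highest and the lowest sum. Wild type replicate 1 was the highest library for 14 of the 43 genes, a share close to its 32.2% of all genes, and knockout replicate 2 was the highest for 12, beside 20.6% of all genes. Knockout replicate 3 was the lowest for 12 and wild type replicate 2 for 10, beside 15.9% and 8.68% of all genes.

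**Figure D4:**
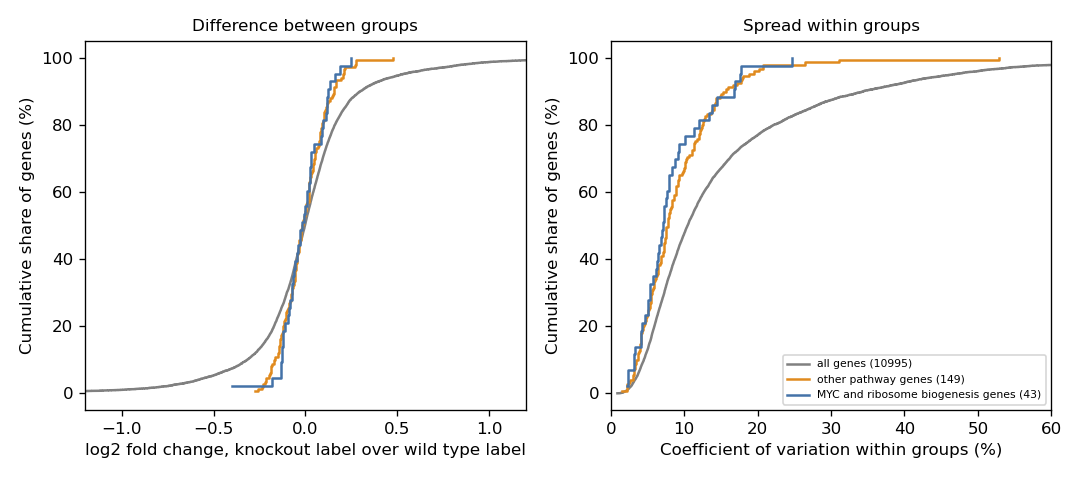
Cumulative share of genes (y axis, %) by log2 fold change between the labels (left, x axis limited to the central range) and by coefficient of variation within groups (right, %, axis limited to 60%), for the 43 genes, 149 other pathway genes and all 10995 genes. The curves of both pathway sets rise more steeply around 0 than that of all genes, and their spread within groups has a lower median (7.05%, 7.75% and 10.45%).

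Other genes of the same pathways gave a like median, with some wider intervals. Of 149 further genes of the MYC network, RNA polymerase I, snoRNPs, subunit assembly and polyamine or nucleotide synthesis that were listed in the table, 0 passed the edgeR test and 2 had an unadjusted p under 0.05 in edgeR. These were the small subunit factors Tbl3, at 46.6, 45.5 and 44.9 CPM with the wild type label and 38.6, 36.6 and 39.2 CPM with the knockout label (log2 fold change -0.26, SE 0.067, edgeR adjusted p = 0.574), and Utp6, at 47.3, 58.3 and 57.3 CPM and 66.4, 65.0 and 64.8 CPM (log2 fold change 0.27, SE 0.096, edgeR adjusted p = 0.574). Both act in the same early particle, and both had groups without overlap, in opposite directions. Of the 149, 68 lay above 0 around a median of -0.017, which became 0.0066 with scaling by library size alone. The largest fitted difference was in Las1l (log2 fold change 0.48, SE 0.22, edgeR adjusted p = 0.574), larger in size than any of the 43. The interval lay within 2-fold for 147 of the 149, the exceptions being Las1l and Mycl. It lay within 1.25-fold for 46.3% of the 149, against 62.8% of the 43.

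The 6 genes next in order of unadjusted p were picked by that order alone, and 0 of them passed. Smox, which oxidizes spermine, averaged 225 CPM ± 29.1 (SD, n = 3) under wild type against 186 CPM ± 15.0 under knockout labels. Sat1, which acetylates polyamines, averaged 247 CPM ± 26.5 against 213 CPM ± 4.90. Sms, which makes spermine, averaged 26.5 CPM ± 1.18 against 30.3 CPM ± 1.36. Azin1, which spares ornithine decarboxylase from degradation, averaged 70.3 CPM ± 4.80 against 78.8 CPM ± 1.56. Smox and Sat1 were lower, and Sms and Azin1 higher, in every knockout library than in every wild type library. Other polyamine genes overlapped between the groups, among them the oxidase gene Paox at -0.12 (SE 0.20) on the log2 scale and Amd1, needed for spermidine and spermine synthesis, at -0.17 (SE 0.17). The polymerase I subunit gene Twistnb had a log2 fold change of 0.22 (SE 0.097) and the helicase gene Ddx27 -0.14 (SE 0.065). Smox, Sat1, Sms, Azin1, Twistnb and Ddx27 all had groups without overlap, and for each of the 6 the edgeR adjusted p was 0.574. In the list of 30 genes of polyamine and nucleotide synthesis to which the first 4 of these belong, 12 lay above 0 and 6 had groups without overlap, a share near the 17.4% of all genes. The 9 other MYC network genes, among them the MAX partners Mxd1, Mxd4, Mxi1, Mnt and Mga, all lay below 0 around a median of -0.089, with 0 passing in edgeR and 0 at an unadjusted p under 0.05. With scaling by library size alone, in limma-voom or with 1 library left out, 1 to 2 of the 9 lay above 0. The values ranged from -0.20 (Mlxip) to -0.018 (Mlx).

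What the 43 genes share beyond their roles was also described from the annotation. SnoRNA genes lie on the same strand inside 8 of the 43, or 18.6%, against 1.86% of the 10917 genes with 1 match in GENCODE M21. The hosts are Ncl, Nop56, Nop58, Dkc1, Gnl3, Tsr1, Wdr43 and Odc1, and together they hold 22 annotated snoRNAs. The 43 genes lie on 18 chromosomes. Sequence shared with other genes limits the counts of 11. Ddx18 shares 72.9% of the 31-base words of its longest transcript with transcripts of other genes, Odc1 52.0%, Npm1 45.5%, Tsr1 35.7%, Pes1 33.1%, Nop56 24.1%, Noc2l 19.98%, Wdr12 14.5%, Nip7 11.8%, Srm 11.2% and Bysl 10.2%. Words were searched on both strands of the other transcripts, so overlapping antisense exons at the same place count as shared. Such exons cover 32.3% of the exonic bases of Tsr1, 20.9% of Noc2l and 9.37% of Bysl. Reads of these 11 genes are uncertain, since the labels give neither a strand setting nor a rule for reads with several alignments. Of the 32 genes with at most 10% shared, 13 lay above 0 around a median of -0.051, with 0 called and 0 at an unadjusted p under 0.05 in edgeR.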

How the data were processed

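Bulk RNA-seq of 6 libraries was used. The count values are whole reads per gene as the authors deposited them, in 1 table without any scaling. HISAT2, featureCounts, CASAVA 1.8 and GRCm38 (mm10) are named in the submitters' processing notes. Annotation release, strand setting and multi-mapping rule, not given in the sources used here, can change a gene's count. Library totals ran from 19569173 to 24188875. The highest count of every listed gene was at least 133, so the table holds no rows of low counts only. Counts were fitted over all 10995 rows with edgeR 4.0.16 in R 4.3.3 (filterByExpr, which removed 0 rows, TMM, robust quasi-likelihood F test, group as the only term, Benjamini-Hochberg adjustment over all genes at 0.05). DESeq2 1.42.0 and limma-voom (limma 3.58.1) were alternatives, and the tests were checked on simulated counts. Log2 fold changes are knockout label over wild type label, with the SE and 95% interval of the fit, which cover the spread between libraries only. Coordinates, exon lengths and shared 31-base words come from GENCODE M21 (GRCm38), in which all 43 symbols matched 1 gene. The genes and lists were chosen with earlier results of these data known. Values are given for Myc, Max, the 8 genes with the smallest unadjusted p, the 3 highest and 3 lowest fold changes, the most abundant gene of each role and, among other pathway genes, the 4 with the smallest p in each direction. Others were named after their values were seen. Deviations from the group mean correlated between same-numbered libraries at r = -0.112, 0.348 and -0.255 for replicates 1, 2 and 3. Over all pairs of a wild type and a knockout library r ran from -0.329 to 0.351. These values cannot settle whether the libraries were paired, since deviations from a mean of 3 libraries offset one another.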

Additional observations from a re-analysis of the deposited data

How the results depend on the processing

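The calls of 0 among the 43 genes held under every alternative run. Over all genes, DESeq2 called 103 (64 higher, 39 lower), none of them among the 43, and leaving out 1 library gave 0 to 2 edgeR calls (2 without wild type replicate 2). Leaving out 1 library gave 0 to 1 of the 43 an unadjusted p under 0.05 in edgeR, moved their median log2 fold change between -0.055 and 0.026, and gave 7 to 13 genes without overlap. Fewer libraries make separation easier, and the share over all genes also rose in the runs for which it is given above. With 1 library left out, 37 to 41 of the 43 intervals lay within 1.5-fold, an alternative chosen after seeing the data. Replicate numbers were not shown to pair the libraries. With the replicate block 0 genes were called, 37 intervals lay within 1.5-fold, the median was -0.018, Myc stood at -0.36 and 862 genes had an unadjusted p under 0.05 in edgeR, against 866 without the block and 1365, 513 and 388 without wild type replicate 2, knockout replicate 1 and knockout replicate 2. Scaling by library size alone gave the other pathway genes a median of 0.0066 and turned Nolc1 (0.021), Ddx18 (0.014) and Nip7 (0.0090) positive, and keeping only genes of at least 10 CPM turned Nolc1 positive (0.0042). The cause was not tested. Genes near 0 changed sign when 1 library was left out, over these log2 ranges: Ncl -0.078 to 0.0032, Npm1 -0.030 to 0.12, Nolc1 -0.062 to 0.037, Nop56 -0.062 to 0.010, Gar1 -0.18 to 0.097, Rrp9 -0.13 to 0.074, Wdr43 -0.046 to 0.075, Utp20 -0.24 to 0.020, Heatr1 -0.026 to 0.086, Nat10 -0.11 to 0.026, Bysl -0.11 to 0.028, Nop2 -0.17 to 0.00055, Rrp1b -0.20 to 0.013, Gnl3 -0.077 to 0.070, Ddx18 -0.028 to 0.015, Nip7 -0.080 to 0.041, Odc1 -0.12 to 0.21 and Srm -0.098 to 0.084. Counting error was below the spread within groups in all of the 43 but 4.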
